A study of Mus musculus with 4 samples.

Results

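The genes described here lie on the mouse X chromosome and start between 40 and 70 Mb in the genome build mm9. Each member was covered in every one of the 4 libraries by 20 or more allele-assigned reads. Such a read covers a strain variant and can be given to the maternal or the paternal allele. There were 43 members among 22686 genes in the deposited table and among 341 X-linked genes with this read support. Firre, Utp14a, Aifm1 and Gabra3 meet the same criteria and were left out by the selection rule. Of these 4 genes, 3 passed the read test used below in both pairs of libraries, so counts with them added back are given beside the main ones.

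Epiblast stem cells (EpiSCs), pluripotent cells that resemble the epiblast of the embryo after implantation, were profiled by RNA-seq from female embryos of embryonic day 6.5. The cross was C57BL6/J by (JF1 x C57BL6/J F1), so reads could be split by parent of origin. The 4 libraries, 1 for each combined genotype, were Smchd1 +/+ with XistdeltaA/+, Smchd1 MD1/MD1 with XistdeltaA/+, Smchd1 +/+ with Xist1lox/+, and Smchd1 MD1/MD1 with Xist1lox/+. All 4 therefore carried an Xist mutation on a single allele, and no library was wild type for Xist. The sources used here do not say how many embryos or cell lines stand behind each library, and no genotype had a replicate.

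In female mammals 1 X chromosome is silenced by the long noncoding RNA Xist, which coats the chromosome it is transcribed from. Silencing is then kept by several layers of chromatin, among them DNA methylation at CpG islands and repressive histone marks. SmcHD1 is a non-canonical protein of the structural maintenance of chromosomes family that accumulates on the inactive X. MD1 (MommeD1) is a loss-of-function allele of Smchd1.

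The libraries held 7301034 to 8008500 allele-assigned reads, of which 9665 to 10775 fell on the members. Smchd1, the targeted gene, had 27.0 and 20.9 FPKM (fragments scaled to gene length and library size) in the +/+ libraries against 6.68 and 5.98 in the MD1/MD1 libraries. Xist reads were 99.5% to 99.9% paternal, so the paternal X was the one that transcribed Xist in every library. The amount of Xist RNA differed, with 12.1 and 10.5 FPKM in the +/+ libraries against 38.3 and 28.9 in the MD1/MD1 libraries, XistdeltaA/+ first. The part of this difference in the paternal shares below was not tested. Of 10 primed epiblast markers 9 had at least 1 FPKM in each library, the exception being T. Of 6 naive markers, Klf2 (30.8 to 50.6 FPKM) and Klf4 (24.2 to 34.8) were over 1 FPKM in every library, Zfp42 only in the first (1.15), and Esrrb, Tbx3 and Dppa3 in none, with Dppa3 listed at 0. The naive markers summed to 57.3 to 86.3 FPKM. RNA of other cell types differed between libraries. The summed FPKM of 8 macrophage markers was 24.2 and 973 in the XistdeltaA/+ pair, +/+ first, and 347 and 311 in the Xist1lox/+ pair, with Tyrobp listed at 0 in the first library. Most of the 973 was Lyz2 (799 FPKM), and most of the 24.2 was Cd68 (21.7 FPKM). Aif1 alone of the 8 was lower in MD1/MD1 XistdeltaA/+ (0.316) than in +/+ XistdeltaA/+ (0.450). The sum of 8 fibroblast markers was 43.1, 120, 56.6 and 57.9 in that order, and 7 of them were over 1 FPKM in the first library and 8 in the others. Postn alone of these 8 was lower in MD1/MD1 XistdeltaA/+ (1.54) than in +/+ XistdeltaA/+ (2.03). In bulk RNA, fewer cells of a type and less RNA per cell cannot be told apart.

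The first question was how far the paternal, Xist-coated allele of these genes was read in +/+ and in MD1/MD1 cells. Its share was close to 0 in both +/+ libraries and a few points higher in both MD1/MD1 libraries. Pooled over members, 76 of 10775 reads were paternal in +/+ XistdeltaA/+, a share of 0.705% (exact Clopper-Pearson interval at 95%, 0.556 to 0.882). In MD1/MD1 XistdeltaA/+ it was 338 of 9965 reads, or 3.39% (3.05 to 3.77). With Xist1lox/+ it was 76 of 9716 reads, or 0.782% (0.617 to 0.978), in +/+ and 274 of 9665 reads, or 2.83% (2.51 to 3.19), in MD1/MD1. Intervals cover counting error only. With the 4 excepted genes added back the shares were 1.56%, 3.89%, 1.35% and 3.20% in the same order, so the +/+ shares in particular depend on that exception.

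As a background, the share was measured in autosomal windows of 10 Mb taken, from their low share, to hold maternal-type alleles alone. For +/+ it was 0.169% with XistdeltaA/+ and 0.294% with Xist1lox/+, while for MD1/MD1 these values were 0.890% and 0.384%. These windows were picked by a low share, which partly sets the value. The median gene of these windows was at 0.0235% in MD1/MD1 XistdeltaA/+ and at 0% in the other libraries, far under the pooled values.

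Most of the pooled difference came from 5 genes. Rbmx2, Ddx26b, Mmgt1, Htatsf1 and Vma21 had a higher paternal share in MD1/MD1 in both pairs (Fisher's exact test, Benjamini-Hochberg adjusted p under 0.05 over the 341 X-linked genes). They are 11.6% of the members, where 35.8% of all X-linked genes tested passed in that direction. Members lower in both pairs numbered 0, against 2.05% of X-linked genes. These rates and those below were not matched for read depth. In +/+ XistdeltaA/+ the 43 members held 10775 reads. The 291 X-linked genes outside the stretch, less Xist, Ftx and Jpx, held 147696. Together the 5 genes went from 0.208% to 11.9% with XistdeltaA/+ and from 0.218% to 8.93% with Xist1lox/+. The other 38 members went from 0.814% to 1.41% and from 0.913% to 1.36%. Because the 5 genes were picked by this test, that split is a description. The read test compares libraries and not conditions, since each genotype had 1 library.

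**Figure D1:**
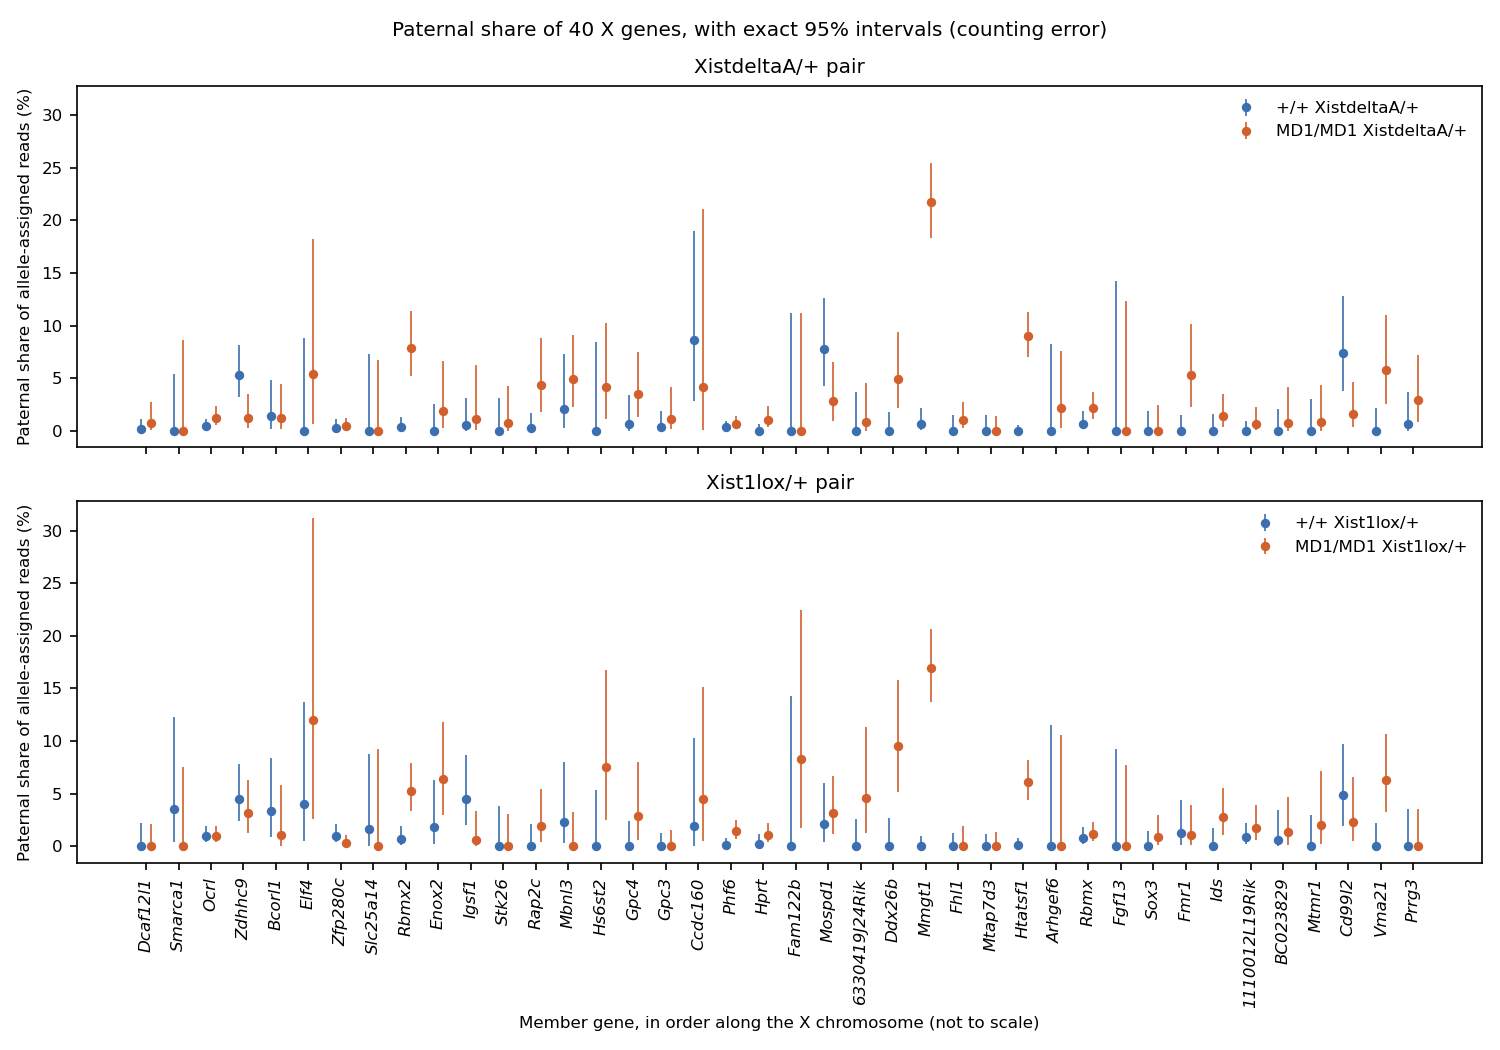
Paternal share of allele-assigned reads in percent for 40 of the members in their order along the X, with +/+ in blue and MD1/MD1 in orange, the XistdeltaA/+ pair above and the Xist1lox/+ pair below. Bars are exact 95% intervals of counting error, and Mmgt1 stands highest at 21.7% and 16.9% in MD1/MD1 while most members stay near 0 in all libraries.

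Mmgt1 (mm9, chromosome X, 53838689 to 53851096, minus strand) encodes a membrane magnesium transporter that is also a subunit of the endoplasmic reticulum membrane protein complex. Its paternal reads were 2 of 334 and 118 of 543 in the XistdeltaA/+ pair, +/+ first, and 0 of 377 and 81 of 478 in the Xist1lox/+ pair. Its share was 0.599% and 21.7% (18.3 to 25.4) with XistdeltaA/+. With Xist1lox/+ it was 0%, which allows up to 0.796%, and 16.9% (13.7 to 20.6). Both MD1/MD1 libraries lay far above both +/+ libraries, with adjusted p of 3.37e-23 and 2.07e-21 by Fisher's exact test.

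Htatsf1 (54306747 to 54320359, plus strand), a factor of transcription elongation and splicing, had deep read support. Paternal reads were 0 of 653 and 64 of 713 with XistdeltaA/+, and 1 of 699 and 40 of 658 with Xist1lox/+. Its share was thus 0% and 0.143% in +/+, and 8.98% (6.98 to 11.3) and 6.08% (4.38 to 8.19) in MD1/MD1 (Fisher's exact test, adjusted p = 2.66e-18 and 2.63e-11). The intervals of +/+ and MD1/MD1 did not overlap in either pair.

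Rbmx2 (46048181 to 46063896, plus strand) encodes an RNA-binding protein of the spliceosome. It had 2 of 562, 26 of 329, 3 of 454 and 22 of 417 paternal reads, in the order +/+ then MD1/MD1 with XistdeltaA/+ and then with Xist1lox/+. This order of libraries is kept wherever 4 values follow each other. The shares were 0.356%, 7.90%, 0.661% and 5.28%, with adjusted p of 2.74e-09 and 0.000169 by Fisher's exact test.

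Ddx26b (53708016 to 53761020, plus strand), now named Ints6l, is a relative of the Integrator subunit Ints6. It had no paternal read among 206 and 134 reads in +/+, which allows up to 1.46% and 2.24%. In MD1/MD1 it had 8 of 164 and 13 of 136, or 4.88% and 9.56% (Fisher's exact test, adjusted p = 0.00347 and 0.000624). Vma21 (69061419 to 69070045, plus strand) encodes an assembly chaperone of the vacuolar proton pump. It had no paternal read among 170 and 167 in +/+, and 8 of 139 and 12 of 192 in MD1/MD1, or 5.76% and 6.25% (Fisher's exact test, adjusted p = 0.00381 and 0.00171). In both genes the +/+ libraries were at 0 and the MD1/MD1 libraries were not.

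The macrophage and fibroblast sums given above differed between the XistdeltaA/+ libraries more than between the Xist1lox/+ libraries, and their part in the shares of the 5 genes was not tested. With the +/+ partners of the pairs exchanged, an alternative chosen after the data had been seen, 5 members again passed in both comparisons. The exchange used the same MD1/MD1 reads, and the pooled +/+ shares of the 5 genes were alike (0.208% and 0.218%). It could therefore change little for these genes, and it does not bear on the macrophage and fibroblast sums.

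The 250 bases upstream of the start are shown for the 4 of these 5 genes that have an entry in the RefSeq promoter table (build GRCm38.p6), to set side by side promoters of genes that moved together. Each is printed 5′ to 3′ on the gene's strand, with CG dinucleotides, the sites of DNA methylation, in capitals. Where a gene had several starts, the one with the most CG was taken, here and in all counts. The stretches are chrX:48694754-48695003 for Rbmx2, chrX:56454589-56454838 for Ints6l, chrX:57053584-57053833 for Htatsf1 and chrX:71816508-71816757 for Vma21, all on the plus strand and not comparable with the mm9 positions above.
Rbmx2: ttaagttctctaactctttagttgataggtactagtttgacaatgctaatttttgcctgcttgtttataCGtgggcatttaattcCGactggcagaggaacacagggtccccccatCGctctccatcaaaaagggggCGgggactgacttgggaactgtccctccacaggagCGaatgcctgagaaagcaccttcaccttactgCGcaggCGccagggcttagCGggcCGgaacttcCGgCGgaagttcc
Ints6l: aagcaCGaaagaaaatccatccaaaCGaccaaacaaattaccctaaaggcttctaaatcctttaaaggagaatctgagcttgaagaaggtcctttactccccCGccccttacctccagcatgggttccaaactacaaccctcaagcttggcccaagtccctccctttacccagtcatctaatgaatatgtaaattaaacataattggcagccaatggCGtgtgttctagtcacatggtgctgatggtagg
Htatsf1: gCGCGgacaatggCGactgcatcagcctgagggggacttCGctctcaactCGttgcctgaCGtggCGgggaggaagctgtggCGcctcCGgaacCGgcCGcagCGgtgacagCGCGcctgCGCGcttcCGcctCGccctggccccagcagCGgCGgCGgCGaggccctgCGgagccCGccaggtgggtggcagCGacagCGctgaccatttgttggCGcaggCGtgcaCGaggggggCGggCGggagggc
Vma21: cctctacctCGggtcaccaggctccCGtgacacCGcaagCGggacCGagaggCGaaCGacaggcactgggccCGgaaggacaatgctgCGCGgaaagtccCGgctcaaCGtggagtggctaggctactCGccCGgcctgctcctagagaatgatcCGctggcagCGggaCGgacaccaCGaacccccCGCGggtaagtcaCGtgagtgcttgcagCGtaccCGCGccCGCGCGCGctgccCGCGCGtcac

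The 4 promoters differed widely in CG content. Htatsf1 and Vma21 held 31 CG each at a GC content of 74.0% and 68.8%, Rbmx2 held 11 at 52.4% and Ints6l held 4 at 44.8%. The 32 other members with an entry had a median of 13 CG (3 to 33), and 298 X-linked genes with enough reads and an entry had a median of 14. Over the 27025 genes of the promoter table the median was 6, and 92.3% held at least 1 CG. Both extremes of the members' range are found among genes whose share did not pass, such as Fhl1 with 3 and Fgf13 with 33. Fgf13 had only 24 to 46 reads, which allows a share of up to 6.52% to 12.5%. Whether CG content goes with the change of share was not tested. CG was counted on the strand shown and reads the same on the other strand. Methylation was not measured in these data.

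Neighbours of the 5 genes were read next. Ddx26b and Mmgt1 are themselves neighbours, with starts 143 kb apart. 6330419J24Rik, 80.3 kb before Ddx26b, had shares of 0%, 0.826%, 0% and 4.60%. The last of these values passed Fisher's exact test against its +/+ library (adjusted p = 0.0440) but not against the other +/+ library, and the XistdeltaA/+ pair did not pass (adjusted p = 1).

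Between Mmgt1 and Htatsf1 the members Fhl1 and Mtap7d3 were nearly or wholly maternal and passed in neither pair. Mtap7d3, a microtubule-associated protein gene 231 kb from Htatsf1 by the distance between starts, had no paternal read among 246, 258, 312 and 280, which allows up to 0.962% to 1.22%. Fhl1, a LIM-domain protein gene, had 4 paternal reads of 377 in MD1/MD1 XistdeltaA/+ and none of 189 to 286 in the other libraries. On the far side of Htatsf1, Arhgef6, an exchange factor for small GTPases, had 2 paternal reads of 93 in MD1/MD1 XistdeltaA/+ and none of 30 to 43 elsewhere.

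Rbmx2 lay between Slc25a14, a mitochondrial carrier gene with a single paternal read of 61 in +/+ Xist1lox/+ and none of 38 to 53 in the other libraries, and Enox2, a cell-surface oxidase gene. Enox2 had shares of 0%, 1.89%, 1.79% and 6.38% on 106 to 144 reads, and neither pair passed (Fisher's exact test, adjusted p = 0.292 and 0.209). Vma21 lay between Cd99l2, which is described below, and Prrg3, a gene for a membrane protein with a Gla domain, at 0.667%, 2.88%, 0% and 0%.

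Within single pairs a few more members passed. Members with a higher share in MD1/MD1 numbered 8 with XistdeltaA/+, against 46.0% of X-linked genes tested, and 8 with Xist1lox/+, against 41.1%. Members with a lower share numbered 2 with XistdeltaA/+, where 3.52% of X-linked genes passed, and 0 with Xist1lox/+, where 4.69% did. By Fisher's exact test 11 members had an unadjusted p under 0.05 with XistdeltaA/+ and 10 with Xist1lox/+. Adding the 4 excepted genes gave 9 higher in each pair, 4 and 2 lower, and 6 higher and 2 lower in both pairs. Between libraries of the same Smchd1 genotype 0 members passed, both for the +/+ and for the MD1/MD1 libraries, where 6.74% and 4.99% of X-linked genes did. An unadjusted p under 0.05 was found for 2 members in each of these comparisons. Counts at an unadjusted p over all X-linked genes are not given here for Fisher's exact test, so nothing is read from them.

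Fmr1, which encodes the RNA-binding protein lost in fragile X syndrome (65931716 to 65971136), passed with XistdeltaA/+ alone. Its paternal reads were 0 of 241, 8 of 152, 2 of 161 and 2 of 180, or 0%, 5.26%, 1.24% and 1.11% (Fisher's exact test, adjusted p = 0.00125 and 1). Against the +/+ Xist1lox/+ library the MD1/MD1 XistdeltaA/+ value did not pass. Rap2c, a small GTPase gene of the Ras family, likewise passed with XistdeltaA/+ alone, at 0.303%, 4.38%, 0% and 1.89% (adjusted p = 0.00521 and 0.199 by Fisher's exact test). The high value of both genes was in the MD1/MD1 XistdeltaA/+ library, the one with the highest macrophage and fibroblast sums, and the part of these cells in the result was not tested. Whether the effect of Smchd1 genotype differed between the pairs was tested directly with Zelen's exact test of equal odds ratios. For Fmr1 this exact test gave p = 0.0378, and 0.416 adjusted over 341 genes. No member passed after adjustment, where 4.11% of X-linked genes did. An unadjusted p under 0.05 was found for 1 member and for 33 of the 341 X-linked genes. For 30 members the number of paternal reads was too small for this test to reach an unadjusted p under 0.05.

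Members read most deeply gave narrow limits. Hprt (50341255 to 50374837), the purine salvage enzyme used as a selectable marker of the X, had 0 of 609, 5 of 495, 1 of 491 and 7 of 661 paternal reads. At 1.01% and 1.06% in MD1/MD1 its share stood beside autosomal background values of 0.890% pooled and 0.0235% for the median gene in the first of these libraries, and 0.384% and 0% in the second. It passed with XistdeltaA/+ alone (Fisher's exact test, adjusted p = 0.0375 and 0.254). With the +/+ partners exchanged, the MD1/MD1 Xist1lox/+ library passed and the MD1/MD1 XistdeltaA/+ library did not. Phf6, a zinc finger protein of chromatin mutated in an X-linked intellectual disability, had 3 of 917, 5 of 835, 1 of 686 and 11 of 774 paternal reads, and passed with Xist1lox/+ alone at 0.146% and 1.42% (adjusted p = 0.0183 by Fisher's exact test). Ids, a lysosomal sulphatase gene, went from 0 of 210 to 7 of 255 with Xist1lox/+ (adjusted p = 0.0414 by Fisher's exact test) and from 0 of 236 to 4 of 291 with XistdeltaA/+ (adjusted p = 0.224). All changes in these 3 genes were under 3 points.

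Further deep members were at 2.17% or less in every library and passed in neither pair. Ocrl, an inositol phosphatase of membrane traffic, was at 0.447%, 1.18%, 0.930% and 0.930% on 679 to 895 reads. Zfp280c, a zinc finger protein gene, was at 0.304%, 0.407%, 0.965% and 0.293% on 622 to 737 reads. Rbmx, a splicing regulator whose processed copies elsewhere in the genome make its reads uncertain, was at 0.637%, 2.17%, 0.776% and 1.20%. Htatsf1 passed in both pairs at a similar depth, 653 to 713 reads.

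A small number of members had their highest shares in +/+. Cd99l2, which encodes a cell adhesion protein (68673235 to 68746024), had 11 of 149, 3 of 188, 7 of 145 and 3 of 131 paternal reads, or 7.38%, 1.60%, 4.83% and 2.29%. Zdhhc9, a palmitoyltransferase gene (45525148 to 45561879), had 19 of 360, 3 of 247, 12 of 265 and 7 of 224, or 5.28%, 1.21%, 4.53% and 3.12%. Both passed as lower in MD1/MD1 with XistdeltaA/+ (Fisher's exact test, adjusted p = 0.0246 and 0.0170) and neither passed with Xist1lox/+ (0.508 and 0.670). Neither of these calls held against the +/+ Xist1lox/+ library.

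Mospd1, a gene for a protein with a motile sperm domain, was at 7.73%, 2.87%, 2.08% and 3.14% on 144 to 191 reads. Igsf1, an immunoglobulin superfamily gene, was at 0.571%, 1.15%, 4.52% and 0.617%. Ccdc160 was at 8.62%, 4.17%, 1.92% and 4.44% on 24 to 58 reads. None of these 3 passed in either pair. Ccdc160 had the largest difference of any member between the +/+ libraries, 6.70 points. The median absolute difference over members was 0.305 points between the +/+ libraries and 1.10 points between the MD1/MD1 libraries. Between MD1/MD1 and +/+ it was 1.06 points with XistdeltaA/+ and 1.79 points with Xist1lox/+. For the typical member the MD1/MD1 libraries thus differed from each other about as much as MD1/MD1 from +/+ with XistdeltaA/+.

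By role, members of transcription, chromatin and RNA regulation held 3 of the 5 genes that passed in both pairs, out of 13. Over all members 11.6% passed as higher in both pairs, and over all X-linked genes tested 35.8% did. The median change of these 13 genes was 2.04 points with XistdeltaA/+ and 0.421 with Xist1lox/+. Membrane traffic, lipid and ion handling held the other two, Mmgt1 and Vma21, out of 12, with medians of 0.766 and 1.42. None of 5 genes of kinase, GTPase and cytoskeleton signalling passed in either pair. The heparan sulphate genes Gpc3 and Gpc4, cell-surface glypicans, and Hs6st2, a sulphotransferase that modifies their sugar chains, did not pass either. In single pairs 46.0% of X-linked genes tested passed as higher with XistdeltaA/+ and 41.1% with Xist1lox/+. The groups are small, some of their genes had few reads, and whether roles differ was not tested. Hs6st2 was at 0%, 4.12%, 0% and 7.58% on 42 to 97 reads, Gpc4 at 0.621%, 3.51%, 0% and 2.83% on 106 to 171, and Gpc3 at 0.333%, 1.16%, 0% and 0%. Over all 43 members the median change was 0.823 and 0.678 points, and over the 341 X-linked genes it was 2.72 and 2.33.

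Sox3 stayed nearly or wholly maternal, while Fgf13 and Elf4 had too few reads for narrow limits. Sox3, a transcription factor gene of the early neural plate, had 2 paternal reads of 238 in MD1/MD1 Xist1lox/+ and none of 149 to 257 in the other libraries. Fgf13, an intracellular relative of the fibroblast growth factors, had none among 24 to 46 reads, which allows up to 6.52% to 12.5%. Elf4, a transcription factor gene of the Ets family on 25 to 50 reads, was at 0%, 5.41%, 4% and 12% and did not pass (Fisher's exact test, adjusted p = 0.353 and 0.489).

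**Figure D2:**
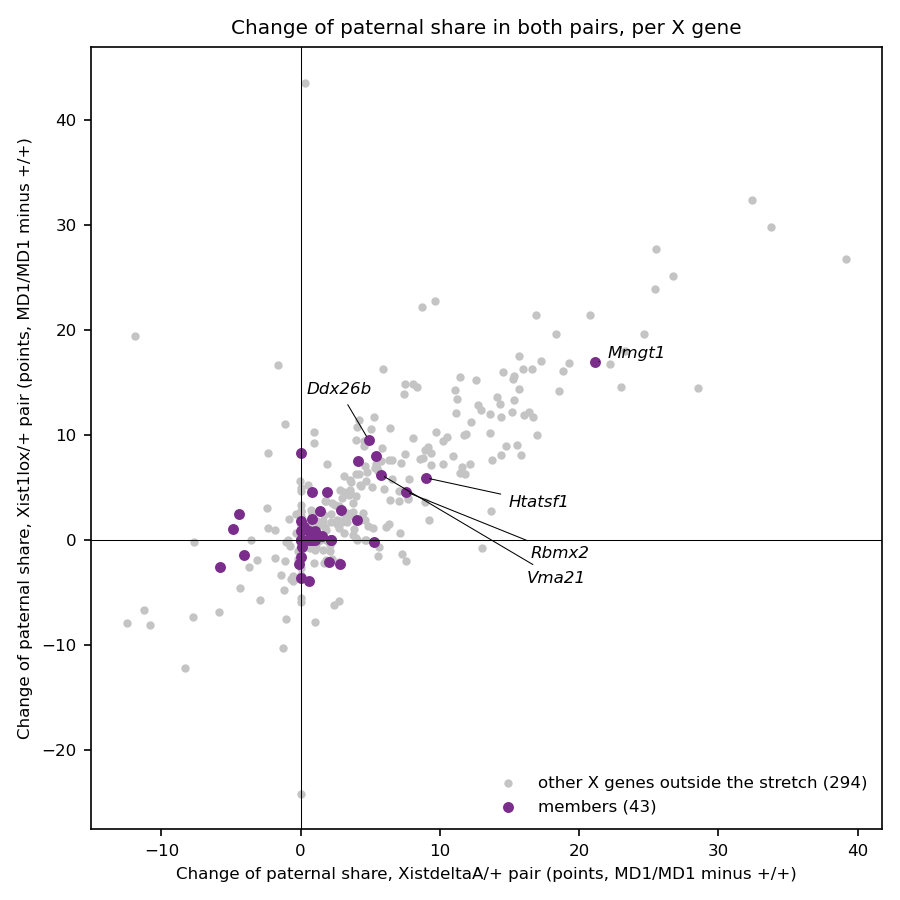
Change of the paternal share in points, MD1/MD1 minus +/+, with the XistdeltaA/+ pair on the horizontal and the Xist1lox/+ pair on the vertical axis, 1 point per gene. Members (43, purple) lie mostly near the origin, and the 5 labelled genes passed Fisher's exact test in both pairs. The 294 grey genes are the X-linked genes outside the 40 to 70 Mb stretch.

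Without regard to a test, 18 members had a share above that of +/+ in both pairs (41.9%, against 60.1% of X-linked genes), and 3 had a share below it in both (9.38% of X-linked genes). Both MD1/MD1 shares lay above both +/+ shares for 17 members, or 39.5%, against 56.3% of X-linked genes, and below both for 3, against 7.62%. At a share of 10% or more stood 0 members in each +/+ library, where 4.40% and 7.04% of X-linked genes did. In MD1/MD1 XistdeltaA/+ Mmgt1 alone reached it, where 23.8% did, and in MD1/MD1 Xist1lox/+ Mmgt1 and Elf4, where 25.8% did. No paternal read was seen for 24 and 21 members in the +/+ libraries, and for 7 and 13 in the MD1/MD1 libraries, XistdeltaA/+ first. Of 14 members with no paternal read in either +/+ library, 6 had paternal reads in both MD1/MD1 libraries. A count of 0 depends on read depth, and no such count over all X-linked genes is given here. The median share was 0%, 1.25%, 0.143% and 1.31% over members. Over the 294 X-linked genes outside the stretch it was 0.0253%, 3.99%, 0.232% and 4.44%. Whether the stretch differs from the rest of the X was not tested, since neighbouring genes are not independent.

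The 294 X-linked genes outside the stretch, less Xist, Ftx and Jpx, had pooled shares of 2.69%, 9.71%, 3.64% and 10.02%. The difference between MD1/MD1 and +/+ was 7.02 and 6.38 points there and 2.69 and 2.05 points for the members. As a ratio of MD1/MD1 over +/+ the pooled share was 4.81 and 3.62 for the members and 3.61 and 2.75 for those genes.

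Along the stretch the members were pooled by 10 Mb. The 17 members from 40 to 50 Mb had 0.778%, 2.14%, 1.33% and 1.77%. The 18 members from 50 to 60 Mb, which include Mmgt1, Htatsf1 and Ddx26b, had 0.619%, 4.75%, 0.289% and 3.79%. Mmgt1 made up much of this: without it, an alternative chosen after the data had been seen, the other 17 had 0.621%, 2.59%, 0.315% and 2.30%. The 8 members from 60 to 70 Mb had 0.737%, 2.08%, 0.920% and 2.35%. With Mmgt1 the MD1/MD1 value was highest from 50 to 60 Mb in both pairs, and without it the Xist1lox/+ value there was below that from 60 to 70 Mb. The median member share in MD1/MD1 was 1.21%, 1.55% and 1.49% along the 3 intervals with XistdeltaA/+, and 0.930%, 1.31% and 1.88% with Xist1lox/+. Between the starts of Sox3 and Fmr1 lay 7.79 Mb with 15 table genes and no member.

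The stretch ends between members and genes of the neighbouring regions. The nearest gene with enough reads before it, Stag2, a cohesin subunit gene, had shares of 0%, 3.09%, 0% and 6.08%, and the first member, Dcaf12l1, had 0.207%, 0.763%, 0% and 0%. The last member, Prrg3, was given above, and the next gene, Nsdhl, an enzyme of cholesterol synthesis, had 1.09%, 5.11%, 0% and 10.8%. Of 136 table genes that start in the stretch, 89 were under the read minimum. Among these, 81 had a mean under 1 FPKM and 52 had no allele-assigned read in any library. Just under the minimum were Zfp449, Mtm1, Hmgb3 and Gabre with 11 to 47 reads. Just over it were Elf4, Ccdc160, Fam122b, Arhgef6 and Fgf13. Fam122b had no paternal read among 24 to 31 in 3 libraries and 3 of 36 in MD1/MD1 Xist1lox/+.

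Read support ran from 24 to 917 reads per gene and library with a median of 159.5. Of 26 members with at least 100 reads in every library 5 passed in both pairs, and of the other 17 none did. No rate over X-linked genes of the same depth is given here, and the part of depth in the members' rate was not tested. Smarca1, Bcorl1, Stk26, Mbnl3, 1110012L19Rik, BC023829 and Mtmr1, which were not described above, passed in neither pair. The highest share among them was 4.92%, for the splicing regulator gene Mbnl3 in MD1/MD1 XistdeltaA/+ (9 of 183 reads), and their reads ran from 41 to 457.

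The next question was whether total expression of these genes followed. FPKM attributed to the paternal allele, the FPKM multiplied by the paternal share and summed over the members, was 2.39, 11.8, 2.65 and 10.9. The MD1/MD1 value was 4.94 times that of +/+ in the XistdeltaA/+ pair and 4.11 times in the Xist1lox/+ pair. For the 294 X-linked genes outside the stretch these ratios were 4.17 and 3.45. For the 38 members other than the 5 genes picked by the read test they were 2.41 and 2.14. Over all members, the part attributed to the maternal allele was 507, 416, 462 and 483, or 0.821 and 1.05 times that of +/+. The paternal part thus stayed small beside the maternal part in all libraries, and the maternal part did not move in the same direction in both pairs.

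Mmgt1 had 9.70, 13.0, 9.27 and 13.4 FPKM, so both MD1/MD1 libraries were higher. Its paternal part was 0.0581, 2.83, 0 and 2.28 FPKM, and its maternal part 9.64, 10.2, 9.27 and 11.2. On the log2(FPKM + 1) scale the ratios were 0.39 and 0.49. With limma, fitted over 11471 genes on Smchd1 genotype and Xist mutation, the change of Mmgt1 was 0.44 with an adjusted p of 0.937 and an unadjusted p of 0.0521.

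The other 4 genes did not show a higher total in both pairs at this size. Htatsf1 had 24.7, 23.2, 24.0 and 25.7 FPKM, with a paternal part of 0, 2.08, 0.0343 and 1.56. Rbmx2 had 19.1, 12.3, 16.1 and 16.1, and its log2 ratios were -0.60 and 0.00. Ddx26b had 7.35, 5.81, 5.25 and 5.99, and Vma21 had 3.45, 3.28, 3.70 and 3.96. The highest total of Ddx26b and of Rbmx2 was in the +/+ XistdeltaA/+ library.

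**Figure D3:**
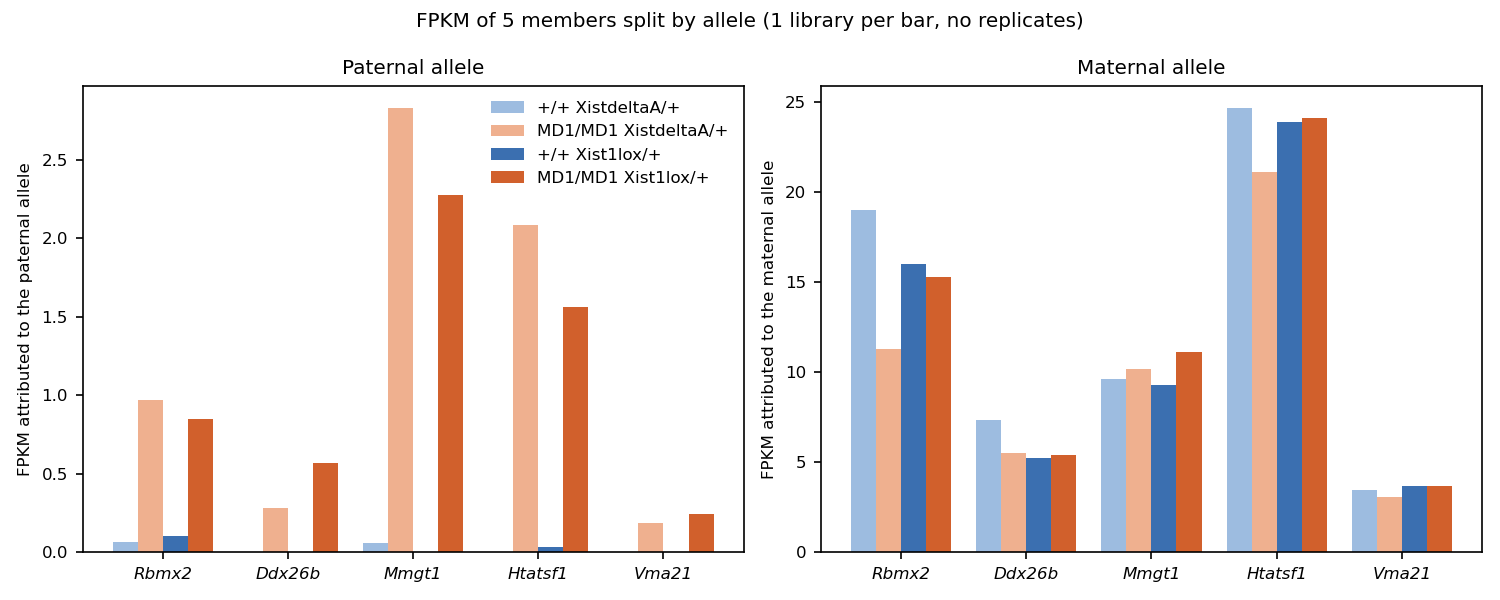
FPKM attributed to the paternal allele (left) and to the maternal allele (right) for Rbmx2, Ddx26b, Mmgt1, Htatsf1 and Vma21, with 1 bar per library and no replicates. Both vertical axes start at 0 and have different scales, and the paternal part of Mmgt1 reaches 2.83 and 2.28 in MD1/MD1.

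No member passed limma, where 0.0349% of 11471 genes did, and 0 of the 41 members tested had an unadjusted p under 0.05, with a lowest adjusted p of 0.937. edgeR on allele-assigned reads called 0 of 43 members, with Mmgt1 at an unadjusted p under 0.05. The limma fit had 1 residual degree of freedom. The median log2 ratio of the 41 members was -0.13 with XistdeltaA/+ and 0.039 with Xist1lox/+. It was -0.055 and 0.070 for 383 X-linked genes, and -0.048 and 0.0040 for all genes. Of all 43 members, without regard to a test, 11 were above +/+ in both pairs and 7 below, and 0 differed by 1.5-fold or more in the same direction in both. No such counts over all genes are given here, so no trend is read from them. Dcaf12l1, a member at 8.56, 4.20, 2.91 and 3.52 FPKM, and Sox3, at 31.3, 16.6, 25.9 and 30.5, had log2 ratios of -0.88 each with XistdeltaA/+ and of 0.21 and 0.23 with Xist1lox/+, so the sign differed between the pairs.

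**Figure D4:**
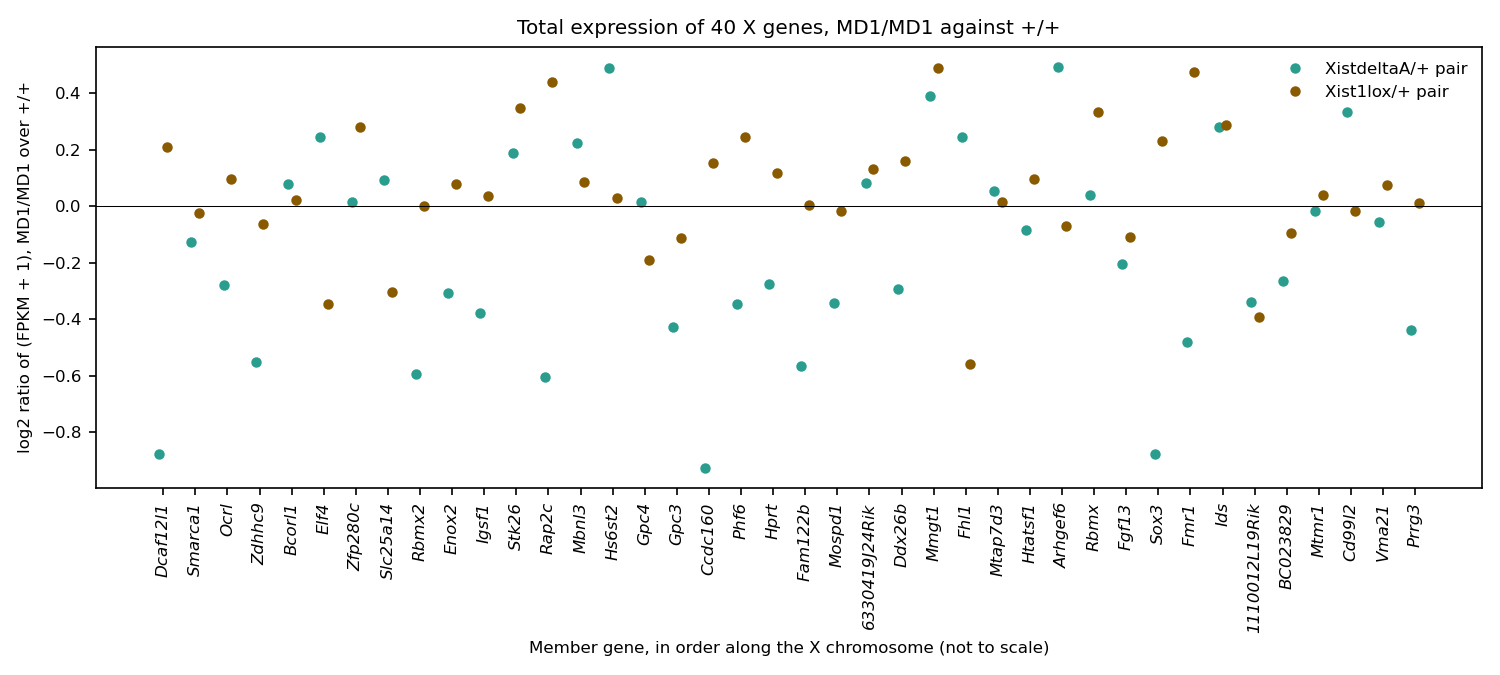
log2 ratio of (FPKM + 1), MD1/MD1 over +/+, for 40 of the members in their order along the X, with the XistdeltaA/+ pair in green and the Xist1lox/+ pair in brown. Ratios lie between -0.93 and 0.49, and Mmgt1 is at 0.39 and 0.49.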

How the data were processed

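Per the labels' protocols, total RNA went into a stranded mRNA library kit. The build mm9, Cufflinks 2.2.1 and Cuffdiff stand in the submitters' processing notes without a stated role. Aligner, variant list, annotation and strand setting: not given in the sources used here. Per the file headers, the authors deposited for each gene and library a count of allele-assigned reads, the fraction of those reads that is paternal, and FPKM. The table's 6 columns that match no sample of the series were not used. Coordinates count from 1.

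Paternal reads were the fraction times the count. Fisher's exact test and Zelen's exact test (two-sided, scipy 1.17.1) were adjusted by Benjamini-Hochberg over 341 X-linked genes with at least 20 reads and a deposited fraction in every library. The upper limit of a count of 0 is 3 reads of the total. limma 3.58.1 with a trend was fitted to log2(FPKM + 1) of genes with a mean of at least 1 FPKM (ratios of low genes are understated). edgeR 4.0.16 on the counts, which cover strain variants only, was an alternative. Tests were tried on simulated data. The autosomal background used windows of 10 Mb with at least 5 genes and a median share under 5%, whose neighbouring windows were also under it.

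Members and lists were chosen with earlier results of these data known. Named are the members past the test in both pairs with their neighbours, the 10 largest changes, the 5 highest +/+ shares and the 8 with most reads; others were chosen after their values were seen. Of the 43 members, 3 enter the counts and pooled values but are not reported singly here. RefSeq promoters matched 36 of 43 members by symbol or synonym.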

Additional observations from a re-analysis of the deposited data

How the results depend on the processing

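With a minimum of 10 or 50 reads (47 and 34 members), adjustment over both pairs together, or a difference of at least 2 points, 5 members were higher in both pairs and counts of calls stayed within 1.5 times. With the 4 excepted genes added back, members lower numbered 4 with XistdeltaA/+, 2 with Xist1lox/+ and 2 in both pairs, and pooled shares were 1.56%, 3.89%, 1.35% and 3.20%. Against the other +/+ library, 0 members were lower in MD1/MD1 XistdeltaA/+. Means of gene shares were 0.909%, 2.64% and 1.00% in the first 3 libraries. At a threshold of 5%, members numbered 4 in +/+ XistdeltaA/+, 6 and 9 in MD1/MD1 with XistdeltaA/+ and Xist1lox/+, and at 20% the last was 0. The cause was not tested. limma and edgeR called 0 members under all 6 other settings, with 1 or 2 members at an unadjusted p under 0.05. The labels give no replicate numbers to use as a block. The share tests were made within each Xist pair, and the limma fit has the Xist mutation as a term, so both already compare within pairs. Leaving out a library leaves a pair without its partner, so no such fit was made.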
